A study of Mus musculus with 28 samples.

Results

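The 7 untreated libraries of a mouse spleen T cell experiment fell into 2 sets by the level of Cd3e, which encodes a chain of the CD3 complex carried by every T cell. Libraries with Cd3e under 60 CPM (a gene's expected count scaled to a fixed library total) are called T-cell-poor here, and those with 60 CPM or more T-cell-rich. NT replicates 3, 7, 4 and 8 were T-cell-poor and NT replicates 5, 2 and 6 T-cell-rich, 4 and 3 of the 28 libraries of the series. NT stands for no treatment. The sets were chosen by the measured Cd3e level, so every difference between them is described without a test, and tests are given only in treated libraries, which the choice did not use.

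The spleen filters blood and holds T cells, B cells, antibody-secreting plasma cells, and myeloid cells such as neutrophils, monocytes, dendritic cells and the red pulp macrophages that take up old red cells. A magnetic sort for CD3 keeps T cells out of this mixture, and any other cell that passes adds its own transcripts to the library. Marker genes, used by 1 cell type far more than by others, show in a bulk library which cells gave RNA. In bulk RNA, fewer cells of a type and less RNA per cell cannot be told apart.

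All mice were male C57BL/6J, 8 to 12 weeks old, and the labels call each sample CD3+ T cells of the spleen, obtained by filtering the tissue, lysing red cells and magnetic sorting. Untreated mice (NT, n = 7) stood beside mice dosed 11 times over 11 days. PS mice (n = 4) got empty vesicles of the polymer PEG-b-PPS under the skin at 60 mg polymer/kg, R mice (n = 6) rapamycin in 0.2% carboxymethylcellulose under the skin at 1 mg/kg, RO mice (n = 6) oral Rapamune at 1 mg/kg, and rPS mice (n = 5) the vesicles loaded with rapamycin, with the same doses of polymer and drug. Rapamycin blocks the kinase mTOR. No label names a batch, a purity measurement or a cell number for any mouse.

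Totals ran from 5016232 to 15696529 expected counts in the 7 untreated libraries, and the 4 T-cell-poor ones (5016232 to 12871909) spanned nearly the same depths as the 3 T-cell-rich ones (7359983 to 15696529). Mitochondrial genes took 0.794% to 5.75% of the counts in the T-cell-poor and 1.30% to 1.60% in the T-cell-rich libraries. Ptprc, the CD45 antigen of all white blood cells, was at 2807, 2794, 2288 and 2744 CPM in NT replicates 3, 7, 4 and 8 and at 2529, 2226 and 2209 CPM in NT replicates 5, 2 and 6, so the 2 sets overlapped in this general marker. Malat1, an abundant nuclear RNA, was listed at 0 in all 7. In the treated libraries other than RO replicate 7 it was at 15693 to 27818 CPM. The reason was not tested, and levels of untreated and treated libraries may not be fully comparable. RO replicate 7 listed 0 for 30.8% of the 11521 genes with at least 10 counts in every other library, and it was left out of the tests and figures.

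T cell genes other than Cd3e were lower in the T-cell-poor libraries too. Cd3e was at 18.5, 23.7, 34.6 and 44.9 CPM in NT replicates 3, 7, 4 and 8, and at 75.9, 401 and 471 CPM in NT replicates 5, 2 and 6. NT replicate 8 was just inside the threshold and NT replicate 5 just outside it. Leaving out Cd3e, whose separation the rule fixed, 23 of 23 genes of the T cell receptor and its signalling were lower in each T-cell-poor library than in each T-cell-rich one, with a median difference of -2.82 in mean log2(CPM + 1). The same was true of 2902 of 15946 genes with a mean of at least 1 CPM (18.2%, and 32.7% in either direction). Over all 15946 genes the median difference was -0.11. This separation follows from the choice of libraries. Trac, the constant part of the receptor alpha chain, was at 11.3, 24, 22.6 and 34.9 CPM against 45.4, 316 and 378 CPM. Lck, the kinase that starts receptor signalling, was at 55.8, 77.3, 58.8 and 105 CPM against 151, 459 and 511 CPM. Tcf7, a transcription factor of naive and memory T cells, was at 30.7, 40.2, 70.6 and 80.7 CPM against 103, 867 and 966 CPM. In each of these genes NT replicate 5 lay much nearer to the T-cell-poor libraries than to NT replicates 2 and 6.

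Genes of the T cell subsets were not all lower by the same amount. Cd4, the coreceptor of helper T cells that some dendritic cells and macrophages also carry, was at 71.7, 52.9, 30.2 and 62.6 CPM in NT replicates 3, 7, 4 and 8, against 84.5, 253 and 260 CPM in NT replicates 5, 2 and 6. Cd8b1, the beta chain of the CD8 coreceptor of killer T cells, was at 16.2, 8.62, 20.5 and 15.9 CPM against 24.5, 230 and 265 CPM. The log2 difference was -1.76 for Cd4 and -2.89 for Cd8b1. Genes of the CD4 and regulatory T cell list ran from -2.61 (Cd40lg) to 0.27 (Zbtb7b). Those of the CD8 list ran from -2.89 (Cd8b1) to -0.63 (Eomes). Whether 1 subset was lost more than the other was not tested. Cd8a, the alpha chain, which a subset of dendritic cells carries without the beta chain, was at 80.3, 90.4, 55.7 and 83.5 CPM against 152, 411 and 469 CPM. Counts of Cd8a per count of Cd8b1 were 4.95, 10.5, 2.72 and 5.24 in the T-cell-poor libraries and 6.21, 1.79 and 1.77 in the T-cell-rich ones. The ratio was lowest in the 2 libraries with the most Cd3e. Counts of Cd4 per count of Cd3e were 3.88, 2.23, 0.871 and 1.4 against 1.11, 0.631 and 0.553. The libraries were chosen by Cd3e, the lower term of this ratio, so the choice itself favours higher ratios in the T-cell-poor set. Of 10 genes of naive T cells, 7 were lower without overlap (median difference -1.89), beside 18.2% of all genes. Among the 7 was Il7r, the receptor for interleukin 7, at 30.9 to 35.3 CPM against 71.5 to 412 CPM.

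**Figure D1:**
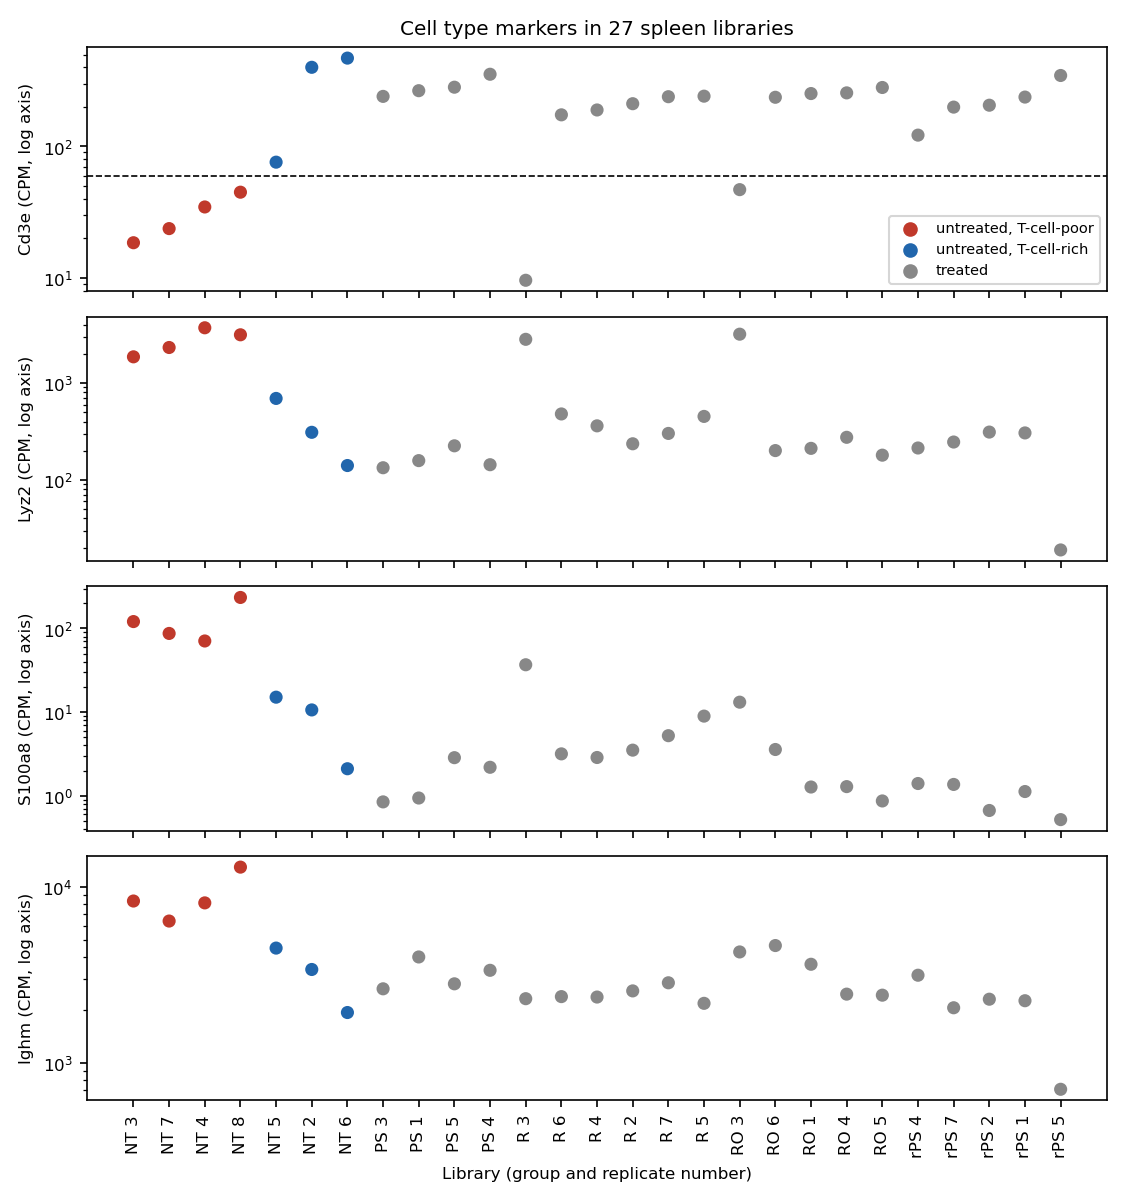
Levels in CPM (log axis) of Cd3e, Lyz2, S100a8 and Ighm in 27 libraries, 1 point per mouse, with RO replicate 7 not drawn and the dashed line at 60 CPM of Cd3e. The 4 T-cell-poor untreated libraries (red) lie above the 3 T-cell-rich ones (blue) in Lyz2, S100a8 and Ighm, and R replicate 3 and RO replicate 3 are the treated libraries (grey) under the line.

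Neutrophil genes showed the widest gap among the lists of other spleen cells. All 18 genes of the neutrophil list were higher in each T-cell-poor library than in each T-cell-rich one, as were 14.5% of all genes (2318 of 15946), and their median log2 difference was 3.77. The 18 genes summed to 2225, 1281, 4921 and 3293 CPM in NT replicates 3, 7, 4 and 8 and to 528, 162 and 70.8 CPM in NT replicates 5, 2 and 6, a ratio of the 2 mean sums of 11.5. S100a8, which with S100a9 forms the calcium-binding protein calprotectin of neutrophils, was at 121, 87.2, 70.9 and 235 CPM against 15.1, 10.6 and 2.1 CPM. Csf3r, the receptor for the granulocyte growth factor, was at 662, 311, 470 and 660 CPM against 108, 27.7 and 11.6 CPM. Genes of granules that are filled at different stages of neutrophil growth were among them. Mpo, the myeloperoxidase of primary granules, which young neutrophil precursors transcribe, was at 31.3, 15.3, 149 and 62.2 CPM against 3.94, 1.39 and 0.510 CPM. Ltf, the lactoferrin of secondary granules, was at 136, 46.2, 1167 and 196 CPM against 42.4, 5.66 and 2.23 CPM. NT replicate 4 was the highest library for both granule genes but the lowest of the 4 T-cell-poor libraries for S100a8. Other members differed again: Mmp9 and Ly6g were also highest in NT replicate 4, at 299 and 9.77 CPM, and S100a9, Cxcr2 and Csf3r were lowest in NT replicate 7. In the T-cell-rich libraries 4 of the 18 genes had a mean under 1 CPM, so they passed the filter on low values through the T-cell-poor libraries.

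Promoters of the neutrophil list are shown because its members were high together. Windows from 250 bases before to 50 after the gene start were taken from RefSeq (build GRCm38.p6), and 16 of the 18 genes had one. The letters GAGGAAGT, a core bound by the myeloid factor PU.1, stood on either strand in 6 of these 16 (37.5%) and in 3.28% of all 27025 promoters. The letters TTGCNNAA, a core of C/EBP sites, stood in 7 of 16 (43.75%) against 10.75% of all, TGTGGT, a RUNX core, in 2 of 16 (12.5%) against 16.92%, and ATGCAAAT, the octamer of B cell promoters, in 0 of 16 against 1.75%. The octamer can share letters with a C/EBP core, but it had no match in this list. The motifs were chosen with their shares known, and a match is a description of the sequence and not evidence of binding. The promoters of Mpo (chr11:87793534-87793833, plus strand), S100a8 (chr3:90668821-90669120, plus strand) and Ltf (chr9:111019042-111019341, plus strand) follow, each 5′ to 3′, with matches in capitals. Those of Mpo and S100a8 hold the PU.1 core, the second on the opposite strand. That of Ltf holds a C/EBP core and then a RUNX core, both on the opposite strand.
Mpo: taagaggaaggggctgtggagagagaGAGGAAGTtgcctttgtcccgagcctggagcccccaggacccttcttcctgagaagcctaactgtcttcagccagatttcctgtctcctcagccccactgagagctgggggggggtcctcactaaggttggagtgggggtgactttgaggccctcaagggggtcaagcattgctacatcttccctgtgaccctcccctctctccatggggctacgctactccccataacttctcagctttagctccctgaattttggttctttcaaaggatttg
S100a8: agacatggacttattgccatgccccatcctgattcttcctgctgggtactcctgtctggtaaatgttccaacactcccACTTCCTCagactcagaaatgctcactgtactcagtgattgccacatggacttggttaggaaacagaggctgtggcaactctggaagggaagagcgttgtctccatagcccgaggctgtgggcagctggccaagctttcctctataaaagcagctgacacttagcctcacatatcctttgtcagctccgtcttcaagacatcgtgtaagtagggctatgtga
Ltf: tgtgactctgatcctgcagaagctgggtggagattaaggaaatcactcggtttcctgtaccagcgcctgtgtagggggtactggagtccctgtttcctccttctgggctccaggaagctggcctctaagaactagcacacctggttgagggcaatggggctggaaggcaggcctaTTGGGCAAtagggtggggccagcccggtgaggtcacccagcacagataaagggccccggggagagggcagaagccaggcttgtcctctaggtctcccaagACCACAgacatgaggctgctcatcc

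Monocyte and macrophage genes were higher as well, with a smaller gap. Of 20 genes, 19 were higher without overlap, beside 14.5% of all genes, and the median log2 difference was 1.98. Lyz2, the lysozyme of myeloid cells, was at 1865, 2328, 3721 and 3149 CPM in NT replicates 3, 7, 4 and 8 against 693, 310 and 141 CPM in NT replicates 5, 2 and 6. Csf1r, the receptor for the macrophage growth factor, was at 1015, 1127, 1769 and 1169 CPM against 368, 377 and 206 CPM. Itgam, the integrin CD11b of myeloid cells, was at 345, 306, 898 and 534 CPM against 134, 38.3 and 22.5 CPM. Markers of both monocyte types were in the list: Ccr2, the homing receptor of classical monocytes, had a log2 difference of 2.71, and Cx3cr1 and Ace, of patrolling monocytes, had 2.35 and 2.64. Ly6c2, which marks classical monocytes but also memory T cells and plasma cells, was the 1 gene that overlapped, at 105 to 196 CPM against 37.5, 139 and 120 CPM.

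Red pulp macrophage genes were higher in the same libraries. Of 15 genes, 14 were higher without overlap, beside 14.5% of all genes, with a median log2 difference of 1.32. Hmox1, which breaks down haem, was at 386, 471, 459 and 421 CPM against 101, 218 and 138 CPM, and Slc40a1, the iron exporter ferroportin, at 504, 681, 501 and 510 CPM against 249, 282 and 172 CPM. These 2 genes varied less among the 4 T-cell-poor libraries than the granule genes did. Spic, the factor that specifies red pulp macrophages, was among the 14, while Gpnmb was at 1.78 CPM in NT replicate 6 and under 1 CPM in NT replicates 3 and 7. The C1qa and C1qb subunits of complement, at 119 to 160 and 125 to 210 CPM in the T-cell-poor libraries, were at 48.8 to 83.3 and 54.0 to 96.3 CPM in the T-cell-rich ones.

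Dendritic cells, which present antigen to T cells, and basophils with their relatives also had higher genes. Beside the counts that follow, 14.5% of all genes were higher without overlap. Of 15 dendritic cell genes, 9 were higher without overlap (median log2 difference 1.52). Flt3, a growth factor receptor of dendritic cells and their precursors, was at 146, 112, 52.1 and 63.0 CPM against 49.6, 18.1 and 12.1 CPM, and Xcr1, a receptor of the cross-presenting subset, at 46.5, 45.6, 11.6 and 22.5 CPM against 9.65, 5.77 and 3.63 CPM. Siglech, a marker of plasmacytoid dendritic cells, overlapped, at 145, 53.8, 10.4 and 27.7 CPM against 24.6, 23.1 and 12.7 CPM. Of the 8 genes of basophils, mast cells and eosinophils with a mean of at least 1 CPM (10 listed), 7 were higher without overlap, but 4 of the 7 had a mean under 1 CPM in the T-cell-rich libraries and passed the filter through the T-cell-poor ones. Hdc, which makes histamine in basophils, mast cells and neutrophils, was at 106, 66.6, 86.6 and 181 CPM against 33.0, 1.96 and 1.91 CPM. Prss34, a protease of basophils, was at 3.57, 2.49, 16.3 and 10.2 CPM against 0.679, 0.462 and 0.127 CPM, the last 3 close to the level of a few counts.

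**Figure D2:**
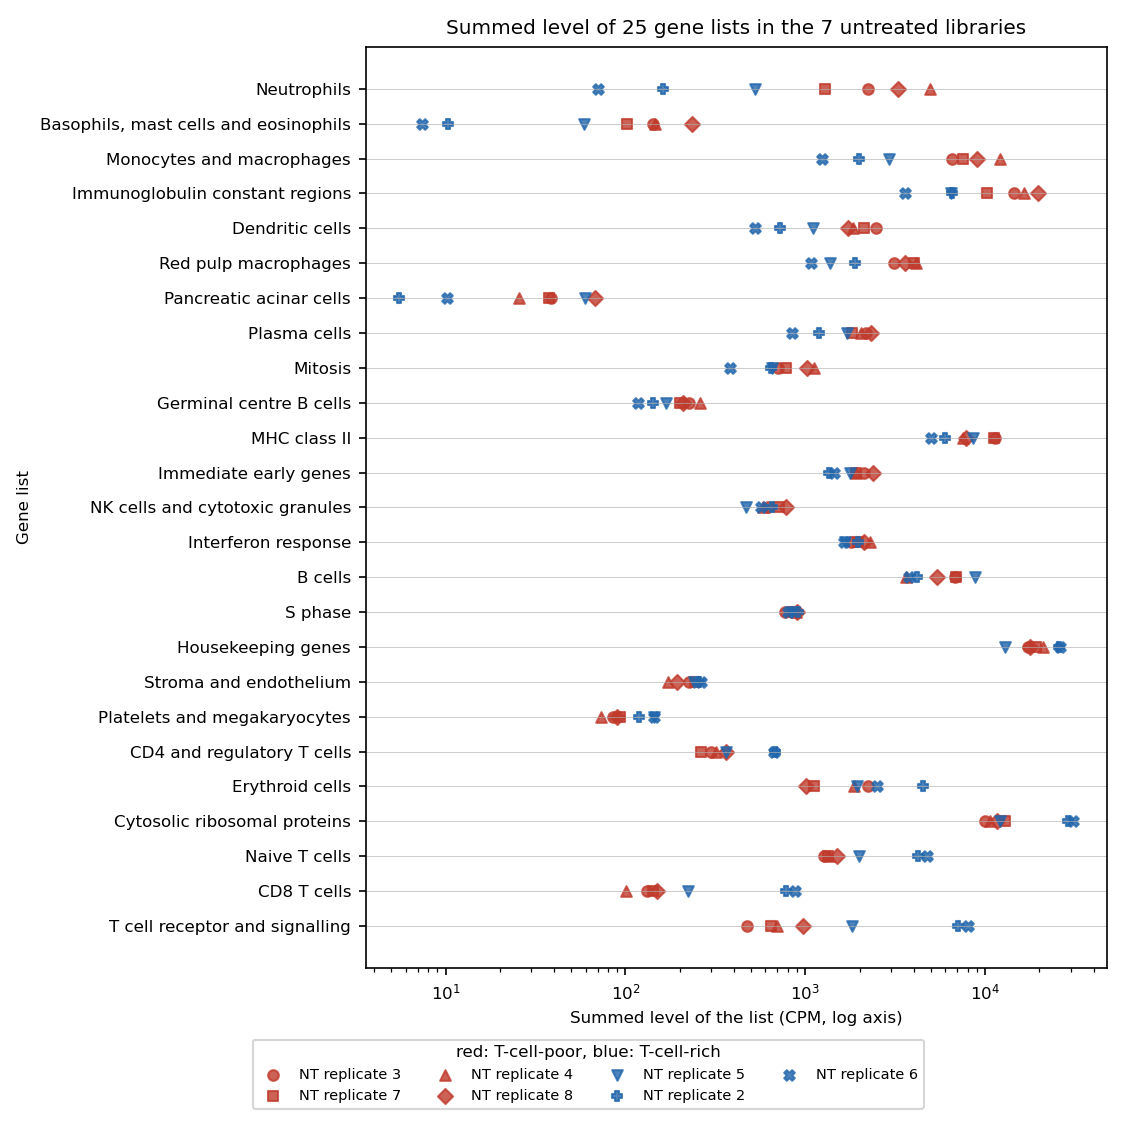
Summed CPM (log axis) of 25 gene lists in the 7 untreated libraries, 1 symbol per library, T-cell-poor in red and T-cell-rich in blue, with the lists ordered by the ratio of the mean sums. The neutrophil list runs from 1281 to 4921 CPM in the red and from 70.8 to 528 CPM in the blue libraries, while in the B cell list the highest point is the blue NT replicate 5 at 8741 CPM.

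B cells differed from the myeloid cells. Most genes that identify B cells overlapped between the sets. Of 22 such genes, Btk was higher and Fcer2a lower without overlap, beside 14.5% and 18.2% of all genes. The median log2 difference was 0.04. Cd79a, a signalling chain of the B cell antigen receptor, was at 263, 286, 203 and 262 CPM in NT replicates 3, 7, 4 and 8 and at 293, 279 and 247 CPM in NT replicates 5, 2 and 6. Ms4a1, the CD20 antigen, was at 435, 500, 175 and 338 CPM against 428, 270 and 222 CPM. Without NT replicate 5, 6 B cell genes were higher and 1 lower without overlap, with a median difference of 0.42, in a setting in which 26.7% of all genes were higher and 30.7% lower.

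Immunoglobulin constant regions were higher, 9 of 11 without overlap, beside 14.5% of all genes, with a median log2 difference of 1.53. Ighm, the heavy chain of immunoglobulin M, was at 8337, 6415, 8136 and 12989 CPM against 4503, 3404 and 1938 CPM. Igkc, which encodes most light chains of mouse antibodies, was at 2986, 2159, 3179 and 4164 CPM against 1021, 1550 and 733 CPM. Ighd, the heavy chain of immunoglobulin D, which mature B cells make together with IgM and plasma cells do not, overlapped at 305, 331, 120 and 260 CPM against 346, 358 and 325 CPM. Counts of Ighm per count of Ighd were 27.3, 19.4, 67.8 and 49.9 in the T-cell-poor and 13, 9.5 and 5.96 in the T-cell-rich libraries, and counts of Igkc per count of Cd79a were 11.4, 7.55, 15.7 and 15.9 against 3.48, 5.56 and 2.97. Both ratios were higher in each T-cell-poor library than in each T-cell-rich one. Igha, the heavy chain of immunoglobulin A of mucosal plasma cells, reached 3203 CPM in NT replicate 4, against 380 to 868 CPM in the other T-cell-poor libraries and 124 to 615 CPM in the T-cell-rich ones.

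Genes of antibody secretion and of antigen presentation had median differences between those of the B cell and immunoglobulin lists. Of 14 plasma cell genes, 4 were higher without overlap (median log2 difference 0.76), beside 14.5% of all genes. Of these 4, Tnfrsf17 had a mean of 0.907 CPM in the T-cell-rich libraries and passed the filter through the T-cell-poor ones. Without NT replicate 5, 11 were higher, beside 26.7% of all genes. Jchain, which joins immunoglobulin units, was at 859, 654, 825 and 916 CPM against 507, 440 and 178 CPM, and Xbp1, the factor that expands the secretory machinery, at 259, 195, 298 and 309 CPM against 160, 94.8 and 59.2 CPM. Genes of major histocompatibility complex (MHC) class II serve B cells, dendritic cells and macrophages in presenting antigen. Of 10 such genes, 1 was higher without overlap (median 0.50), no more than the 14.5% of all genes. That gene was Cd74, the chaperone of class II molecules, at 5139, 4822, 3800 and 3385 CPM against 3106, 2672 and 2219 CPM. Without NT replicate 5, 7 of the 10 were higher, beside 26.7% of all genes. Germinal centre genes had 3 of 10 higher and 1 lower, beside 14.5% and 18.2% of all genes. Bcl6, the main factor of germinal centre B cells that neutrophils and monocytes also use, was at 136, 108, 164 and 104 CPM against 79.5, 60.5 and 55.5 CPM.

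Other cells that a spleen sort could hold showed less. Beside the counts that follow, 14.5% of all genes were higher and 18.2% lower without overlap. For the natural killer and red cell lists no count exceeded these shares. Of 17 genes of natural killer (NK) cells and cytotoxic granules, Tyrobp and Fcgr3, which myeloid cells use too, were higher and Nkg7, a granule protein of NK and killer T cells, was lower. Klrb1c, the NK1.1 antigen, overlapped at 12.9 to 36.8 CPM against 28.9 to 31.6 CPM, and NT replicate 4 was the lowest of the 7. Red cell genes had 2 of 18 lower and 0 higher without overlap. They were Hbb-bs and Hbb-bt, beta chains of haemoglobin, and Hbb-bs was at 292 to 648 CPM against 721 to 2000 CPM. Of 6 platelet and megakaryocyte genes above 1 CPM, Itgb3 and Gp1ba were lower and Ppbp higher, while Pf4, an abundant platelet transcript, was at 0.199 to 1.22 CPM in the 7 libraries. Of 7 stromal and endothelial genes above 1 CPM, Vwf and Acta2 were higher and Pecam1 lower. Of 9 pancreatic acinar genes above 1 CPM, 0 separated the sets, and the list summed to 25.5 to 67.6 CPM against 59.4, 5.54 and 10.1 CPM.

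Gene groups that are not tied to 1 cell type differed in how far they went with the split. Of 23 mitosis genes, 10 were higher and 0 lower without overlap (median log2 difference 0.61), among them Mki67, a marker of dividing cells, at 258, 262, 454 and 366 CPM against 201, 239 and 116 CPM. Of 24 genes of S phase, 1 was higher and 4 lower, with a median of 0.02, which is no more than the 14.5% and 18.2% of all genes. Of 27 interferon response genes, 11 were higher and 2 lower (median 0.44). Oasl2, an antiviral protein, was at 87.4, 71.7, 153 and 116 CPM against 43.9, 25.9 and 13.6 CPM, and Ifi47, an interferon-induced GTPase, at 44.5 to 55.4 CPM against 59.8, 137 and 130 CPM. All 26 cytosolic ribosomal protein genes had negative differences (median -0.93). Without overlap 8 were lower, 4 with TMM-scaled CPM and 26 without NT replicate 5, whose sum of 12073 CPM lay among those of the T-cell-poor libraries (9974 to 12858 CPM) and far from 28749 and 30843 CPM in NT replicates 2 and 6.

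Some immediate early genes and RNA types differed too. The reasons, and their part in the other differences, were not tested. Fos, an immediate early gene that tissue handling switches on, was at 167, 108, 82.0 and 174 CPM in NT replicates 3, 7, 4 and 8 against 48.4, 7.39 and 6.31 CPM in NT replicates 5, 2 and 6. Dusp1, a stress-induced phosphatase, was at 258, 211, 137 and 251 CPM against 114, 18.7 and 19.7 CPM. Egr1 went the other way, at 14.4 to 23.7 CPM against 27.7, 68.7 and 77.6 CPM. Of 15 immediate early genes 5 were higher and 3 lower without overlap, beside 14.5% and 18.2% of all genes. Small nucleolar RNAs, which guide changes to ribosomal RNA, summed to 56.2 to 269 CPM in the T-cell-poor libraries, 382 CPM in NT replicate 5, and 1750 and 2028 CPM in NT replicates 2 and 6. Rpph1, the RNA of ribonuclease P, was at 429 to 637 CPM, 3322 CPM, and 12663 and 9695 CPM in the same order. In 18 treated libraries with Cd3e of 60 CPM or more, the small nucleolar RNAs summed to 135 to 790 CPM and Rpph1 was at 537 to 4811 CPM. NT replicates 2 and 6 therefore lay above every one of these treated libraries in both.

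The 10 genes with the largest positive and the 10 with the largest negative differences, among genes with a mean of at least 5 CPM and no overlap, held many members of the neutrophil and T cell receptor lists. Vcan, a matrix proteoglycan of monocytes, led with 168, 190, 553 and 612 CPM against 21.7, 4.96 and 1.72 CPM, a log2 difference of 5.50. Chil3, Lrg1, Ltf, Mpo, Lcn2, Cxcr2, Fn1, Il1b and Hp followed, at 4.47 to 3.98. Il1b, the inflammatory cytokine interleukin 1 beta, was at 206, 152, 151 and 336 CPM against 61.0, 5.66 and 3.57 CPM. On the negative side Rpph1 had -3.74, and Igfbp4, Cd3d, Nsg2, Lef1, Tdrp, Cd3g and Themis, with the small Cajal body RNAs Scarna10 and Scarna6, had -3.71 to -3.11. Lef1, a partner of Tcf7 in naive T cells, was at 19.3, 19.7, 36.4 and 36.1 CPM against 118, 468 and 540 CPM.

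The 4 T-cell-poor libraries were not alike in which cells they marked. NT replicate 4 had the most granule and fibronectin transcripts, with Ngp, a neutrophil granule protein, at 1216 CPM (44.3 to 186 CPM in the other 3) and Fn1 at 4011 CPM (981 to 1774 CPM). The same library had the least Ms4a1 (175 CPM), Flt3 (52.1 CPM), Clec9a (22.3 CPM) and Siglech (10.4 CPM) of the 4. NT replicate 3 was its opposite in dendritic cell genes, with Siglech at 145 CPM and Clec9a, a receptor of the cross-presenting subset for dead cells, at 106 CPM. NT replicate 8 led in Ighm (12989 CPM) and S100a8 (235 CPM). NT replicate 7 had the lowest neutrophil sum of the 4 (1281 CPM) and the highest B cell sum (6843 CPM). Across the 15946 genes with a mean of at least 1 CPM in the untreated libraries, Pearson's r of log2(CPM + 1) was 0.962 to 0.988 among these 4.

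**Figure D3:**
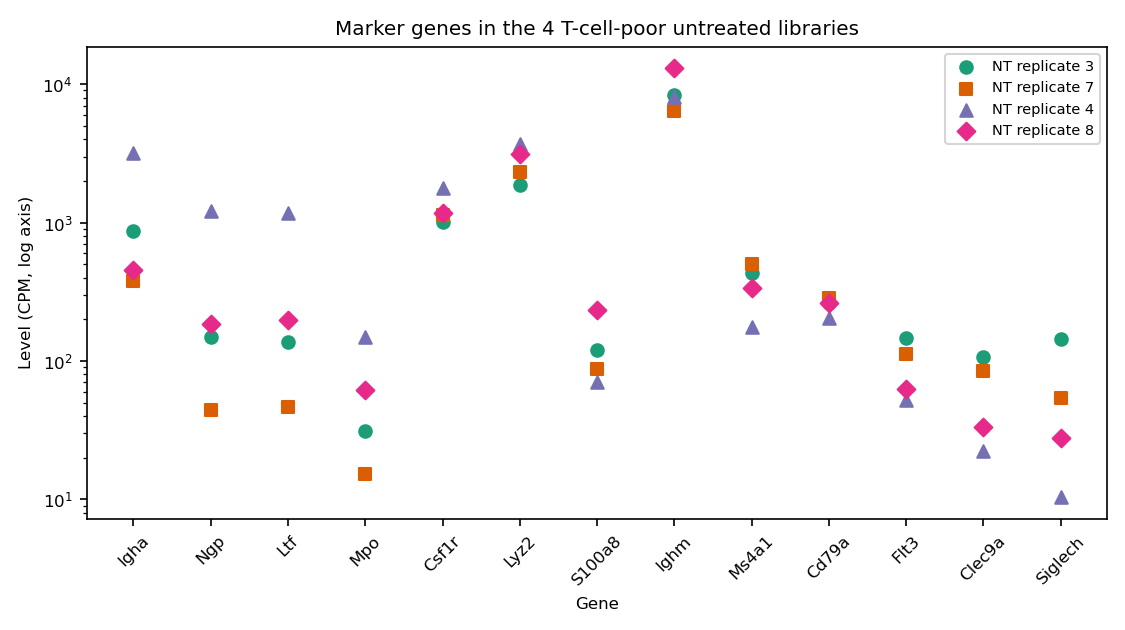
Levels in CPM (log axis) of 13 marker genes in the 4 T-cell-poor untreated libraries, 1 symbol per library. NT replicate 4 stands highest for Igha (3203 CPM), Ngp (1216 CPM), Ltf (1167 CPM) and Mpo (149 CPM) and lowest for S100a8 (70.9 CPM), Ms4a1 (175 CPM), Flt3, Clec9a and Siglech.

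NT replicate 5 lay between the sets, although the threshold put it with the T-cell-rich. Its r was 0.915 to 0.953 with the T-cell-poor libraries and 0.923 to 0.929 with NT replicates 2 and 6, which had 0.990 with each other. Its neutrophil sum of 528 CPM and its monocyte and macrophage sum of 2914 CPM were each between those of the other 6. It had the highest B cell sum of the 7, 8741 CPM against 3610 to 6843 CPM. Without it, 4229 genes (26.7% of 15840) were higher and 4870 (30.7%) lower without overlap in the T-cell-poor libraries, against 2318 and 2902 with it.

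Treated libraries allowed a test of what goes with low Cd3e, since the choice of untreated libraries did not use them. Cd3e was under 60 CPM in 2 of 21 treated libraries, R replicate 3 (9.58 CPM) and RO replicate 3 (46.9 CPM), and in 0 of 4 PS and 0 of 5 rPS libraries. Both had the myeloid genes of the T-cell-poor set, with Lyz2 at 2827 and 3195 CPM against 18.9 to 480 CPM in the 18 others, and monocyte and macrophage sums of 9954 and 11983 CPM. Their r with the T-cell-poor untreated libraries was 0.945 to 0.972. They did not match them in Ighm, at 2323 and 4281 CPM, or in pancreatic acinar genes, which summed to 1102 and 422 CPM against 25.5 to 67.6 CPM in the T-cell-poor untreated libraries. S100a8 was at 36.8 and 13.1 CPM, also under the 70.9 to 235 CPM of the T-cell-poor untreated set.

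**Figure D4:**
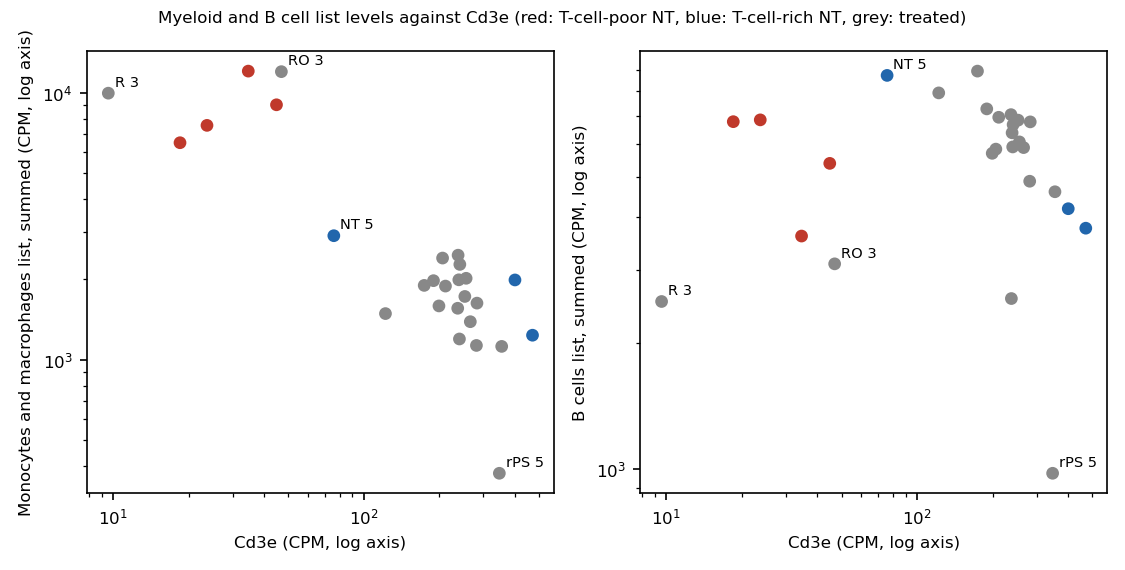
Summed CPM of the monocyte and macrophage list (left) and of the B cell list (right) against Cd3e in CPM (log axes), 1 point per library for 27 libraries, with T-cell-poor NT in red, T-cell-rich NT in blue and treated in grey. R replicate 3 and RO replicate 3 lie beside the red points in the left panel at 9954 and 11983 CPM, and in the right panel rPS replicate 5 is the lowest at 978 CPM.

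edgeR's quasi-likelihood test, with treatment group in the model, asked which genes change with lower Cd3e among 20 treated libraries. Of 16554 genes, 3056 (18.5%) rose and 2577 (15.6%) fell (34% in either direction) with lower Cd3e at a Benjamini-Hochberg adjusted p under 0.05, and the median coefficient of all genes was -0.01. Coefficients are log2 changes per 1 log2 step down in Cd3e, with standard errors (SE). Neutrophil genes rose in 14 of 14 tested (4 of the 18 were too low to test), with a median of 1.05, monocyte and macrophage genes in 16 of 20 (median 0.71) and dendritic cell genes in 12 of 15, with 1 lower. Lyz2 rose by 1.04 ± 0.15 (adjusted p = 3.23e-05), Csf3r by 1.05 ± 0.09 (adjusted p = 8.13e-08) and Ltf by 1.33 ± 0.11 (adjusted p = 4.25e-08). T cell receptor genes fell in 23 of 23, among them Themis, which tunes receptor signals during T cell development, by 1.08 ± 0.09 (adjusted p = 2.13e-08). Of the B cell genes 0 of 22 passed in either direction (median -0.21).

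Several groups differed between the treated test and the untreated description. Of all genes tested, 18.5% rose and 15.6% fell in 20 libraries. Without R replicate 3 and RO replicate 3 these shares were 8.2% and 7.19%. They were 2.36% and 0.968% without rPS replicate 5 as well. Red pulp macrophage genes, of which 14 of 15 were higher without overlap in NT, had 1 of 14 called, Slc11a1, an iron and manganese transporter of phagocytes, at 0.66 (adjusted p = 0.0013 by edgeR). Immunoglobulin constant regions had 4 of 11 higher and 1 lower, and Ighm did not pass (0.14 ± 0.09, adjusted p = 0.267). Without R replicate 3 and RO replicate 3, Ighm rose by 1.00 ± 0.29 (adjusted p = 0.0252) and Igkc by 1.38 ± 0.34 (adjusted p = 0.0135), and without rPS replicate 5 as well Ighm was at 0.44 and Igkc at 0.81 and neither passed. Pancreatic acinar genes, which did not separate the untreated sets, rose in 12 of 12, with a median of 1.37. Without R replicate 3 and RO replicate 3, 0 of 10 passed and the median was 1.92. Cel, a lipase of pancreatic juice, had the largest positive coefficient among named genes, 1.57 ± 0.21 (adjusted p = 1.24e-05), with 170 and 66.6 CPM in R replicate 3 and RO replicate 3. Red cell genes fell in 8 of 18 (median -0.72), but without those 2 libraries 4 rose and 0 fell (median 1.62). Interferon response genes rose in 16 of 27, with 1 lower (median 0.25), but without the 2 libraries 1 of 26 rose and 7 fell (median -0.17), and without rPS replicate 5 as well 0 rose and 4 fell. Of the 20 genes with the largest untreated differences, Rpph1 was at 0.06 (adjusted p = 0.855) and Scarna10 at 0.05 (adjusted p = 0.799).

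Among the 2147 genes that were higher without overlap in the T-cell-poor untreated libraries and tested here, 1544 (71.9%) rose and 2 fell. These 1544 were 50.5% of all genes that rose. Of 2894 genes lower without overlap in those libraries, 1302 (45%) fell and 15 rose, and the 1302 were 50.5% of all genes that fell. Of all 16554 genes tested, 18.5% rose and 15.6% fell. Of the 10474 that overlapped in the untreated libraries, 13.96% rose and 10.42% fell. The 2147 include genes that passed the filter on low values through the T-cell-poor libraries. Ms4a2 of the basophil list, with a mean of 0.983 CPM in the T-cell-rich libraries, was such a gene.

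The calls for myeloid genes depended on the 2 treated libraries with Cd3e under 60 CPM. In the 18 others, edgeR called 1344 of 16391 genes higher (8.2%) and 1178 lower (7.19%), 15.4% in either direction, with lower Cd3e. Neutrophil genes then had 1 of 14 higher (Ltf, 1.99 ± 0.52, adjusted p = 0.0156) and monocyte and macrophage genes 1 of 20 higher and 1 lower. Their median coefficients stayed close to those in 20 libraries, at 0.95 against 1.05 and 0.70 against 0.71, while standard errors were larger, as for Lyz2 (1.09 ± 0.69, adjusted p = 0.306). B cell genes rose in 21 of 22, with a median of 1.82, and MHC class II genes in 10 of 10, with a median of 1.94. H2-Ob, a chain of a regulator of class II loading, was at -0.19 (adjusted p = 0.348) in 20 libraries and rose by 1.63 ± 0.21 (adjusted p = 0.000371) in these 18, and Cd74 rose by 2.45 ± 0.46 (adjusted p = 0.00275). T cell receptor genes fell in 21 of 23, and Themis by 1.64 ± 0.23 (adjusted p = 0.000442). Of the 2147 genes higher in the T-cell-poor untreated libraries, 267 (12.4%) rose among these 18.

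rPS replicate 5 had the lowest B cell sum (978 CPM), with Cd3e at 347 CPM. Leaving it out as well, a step chosen after seeing the data, left 385 of 16316 genes higher (2.36%) and 158 lower (0.968%), 3.33% in either direction, over 17 libraries. B cell genes then rose in 10 of 22 (median 1.16), MHC class II genes in 5 of 10 (median 1.26), and H2-Ob by 1.30 ± 0.23 (adjusted p = 0.0176). Neutrophil genes had 0 of 14 called by edgeR (median 0.02) and monocyte and macrophage genes 0 of 20 (median -0.45). Red pulp macrophage genes had 0 of 14 called, with a median of -1.44. The myeloid medians of the 18 libraries thus did not hold without rPS replicate 5. T cell receptor genes fell in 10 of 23 (median -0.76).

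**Figure D5:**
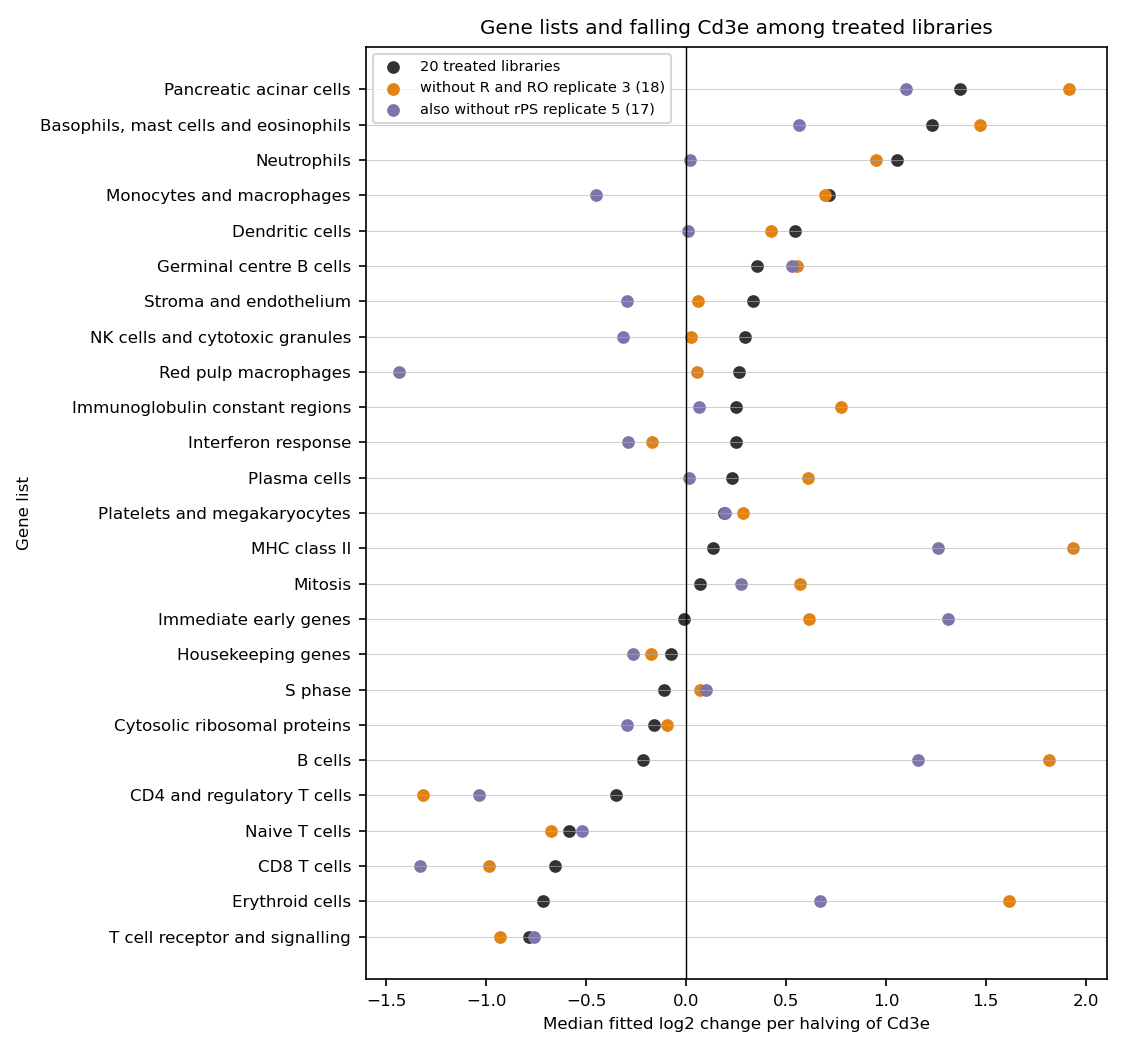
Median fitted log2 change per 1 log2 step down in Cd3e for each of 25 gene lists in treated libraries, for 20 libraries (black), without R replicate 3 and RO replicate 3 (orange, 18 libraries) and without rPS replicate 5 as well (violet, 17 libraries). The B cell median moves from -0.21 to 1.82 and 1.16, and the neutrophil median from 1.05 to 0.95 and 0.02.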

How the data were processed

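RNA of magnetically sorted spleen T cells from 28 mice was sequenced in bulk, and the deposit holds 1 table per mouse. Each deposited table gives expected counts, estimated fragments per gene and not whole, for 55413 Ensembl gene IDs. Tools named in the submitters' processing notes are STAR 2.7.5a, Trimmomatic 0.39, Cuffdiff and Cufflinks 2.1.1, and the build is GRCm39. The tool behind the counts, its annotation and whether strand was used: not given in the sources used here, so overlapping genes on opposite strands and near-identical genes (immunoglobulin segments, haemoglobin chains, Cpa and trypsin families) are less certain. Symbols came from GENCODE M21 (GRCm38), which matched 52082 IDs, and promoters from RefSeq (GRCm38.p6), matched by symbol. The builds differ, so no coordinate is joined to the counts.

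CPM is the expected count over the library's total. Untreated sets were compared by differences of mean log2(CPM + 1) over genes with a mean of at least 1 CPM, and by whether the sets overlap, without a test. A count of 0 allows 3 counts, which is 0.191 to 0.598 CPM in the untreated libraries, for counting error only. Treated libraries were fitted with edgeR 4.0.16 in R 4.3.3 (quasi-likelihood, robust, TMM, filterByExpr by group, two-sided) on counts rounded to whole numbers, with treatment group and -log2 Cd3e CPM. RO replicate 7 was left out because its counts are cut short. Calls have a Benjamini-Hochberg adjusted p under 0.05 over all genes tested except Cd3e. The script was tested on simulated data.

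The sets, gene lists and tests were chosen with earlier results of these data known. Named genes are the 4 markers Cd3e, Lyz2, S100a8 and Ighm, other members of 25 lists (392 genes) with the most abundant of each among them, the 10 largest differences in each direction in untreated libraries, and the largest coefficients in treated ones, both with a mean of at least 5 CPM. Malat1, outside this rule, was chosen after its values were seen. Some genes of the rule are not reported here. Each mouse was taken as a separate replicate. No 2 untreated libraries were close enough to be 1 library under 2 names (lowest chi-square per gene 7.96). Alternatives were other scalings, filters, pseudocounts and thresholds, DESeq2 1.42.0, a T cell list in place of Cd3e, no treatment term, a replicate block and leaving out libraries.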

Additional observations from a re-analysis of the deposited data

How the results depend on the processing

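In the untreated libraries, 2318 genes higher and 2902 lower without overlap became 3512 higher with a threshold of 100 CPM of Cd3e, which puts NT replicate 5 with the T-cell-poor. Leaving out 1 untreated library gave 2421 to 4229 higher and 3222 to 4870 lower, both highest without NT replicate 5. In the treated libraries, 3056 higher and 2577 lower became 1656 lower with RO replicate 7, 1344 and 1178 without R replicate 3 and RO replicate 3, and 385 and 158 without rPS replicate 5 as well. Leaving out 1 treated library gave 2050 to 3428 higher and 1256 to 3286 lower, lowest without R replicate 3. With replicate number as a block there were 791 higher and 930 lower. Deviations of same-numbered libraries from their group means correlated at -0.371 to 0.765 over 21 pairs (median 0.0463, 7 over 0.1), so the numbers were not taken to pair the libraries, though the labels do not say what they mark.

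Coefficients changed sign in the fits without the 2 libraries under 60 CPM, and the cause was not tested. Without those 2 they were -0.0239 for S100a8, 1.45 for Ms4a1, 1.95 for Cd79a, 1.63 for H2-Ob, 2.67 for Hba-a1, -0.0781 for Vcan, 1.88 for Hbb-bt and 1.33 for Alas2. Without rPS replicate 5 as well they were -0.13 for Lyz2, -0.67 for S100a8, -0.53 for Jchain, 1.30 for H2-Ob, -0.87 for Slc11a1, -0.78 for Csf1r, -1.14 for Vcan, -0.75 for Chil3, -0.18 for Mpo, -0.19 for Cxcr2, -0.18 for Fn1, -0.19 for Ace, 0.032 for Hcn3, 0.68 for Hbb-bt and 0.27 for Alas2. Of these, edgeR's adjusted p was under 0.05 for Ms4a1, Cd79a and Hba-a1 in the first fit and for H2-Ob in both. Over all settings, named genes kept direction and lost the call 95 times, and gained it 15 times. The depth of 5016232 counts in NT replicate 8 makes 3 counts 0.598 CPM, which limits Ly6g, Mcpt8 and Pf4.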

Other observations

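R replicate 3 and RO replicate 3, the treated libraries with Cd3e under 60 CPM, and NT replicate 3, the untreated library with the least Cd3e (18.5 CPM), carry the same number in the labels. PS replicate 3 was at 241 CPM. Each label also holds a second code in brackets, and the codes of these libraries share no number. The labels do not say what either marks, so whether these libraries shared a batch cannot be told and was not tested.

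Some T-cell-rich untreated libraries, NT replicates 2 and 6, also differed from most treated libraries in T cell genes. NT replicates 2 and 6 had Cd3e at 401 and 471 CPM, above the 355 CPM of the highest treated library other than RO replicate 7, and T cell receptor variable segments summed to 261 and 287 CPM against 46.6 to 204 CPM in 18 treated libraries with Cd3e of 60 CPM or more. Their ribosomal protein sums, 28749 and 30843 CPM, were above the 14232 to 24492 CPM of those 18. NT replicate 5, though also in the T-cell-rich set, lay below each of those 18 in all these values. Its Cd3e was at 75.9 CPM against at least 122 CPM, its variable segments summed to 31.6 CPM and its ribosomal protein genes to 12073 CPM. These values were chosen after they were seen and no test was made of them.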
